A study of Rattus norvegicus with 18 samples.

Results

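The genes described here are 10 effector genes that neurons switch on with a delay after activity: Inhba, Gadd45b, Gadd45g, Sik1, Nptx2, Rgs2, Rgs4, Pcsk1, Rheb and Plk2. Members were chosen by name, as every array probe set that the platform annotation assigns to one of these symbols. The list of genes was drawn up with earlier results of these data known. Of the 10 genes, 8 had a probe set, 13 in all among the 31099 of the array, and Nptx2 and Pcsk1 are not analysed here. Inhba, Sik1, Rgs2, Rgs4 and Rheb each had 2 probe sets, and the one with the higher mean signal is given first. Of the 13 probe sets, 11 passed the filter on dim signals (a mean signal above 19.7), and the second probe sets of Inhba and Sik1 lay under it and were not tested.

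The study measured RNA of the right neocortex and right hippocampal formation of male Sprague Dawley rats that had different amounts of paradoxical sleep, also called rapid eye movement sleep. All 36 rats carried electrodes for recording the electroencephalogram and the electromyogram and were housed singly. Their age was not given in the sources used here. Control rats were left in home cages. For deprived rats the flowerpot method was applied over 78 h: they lived on small platforms surrounded by water, and the slackening of muscles that comes with paradoxical sleep wakes them. Recovery rats had 72 h of the same deprivation and then 6 h in which sleep was allowed. No group stayed on platforms while sleeping normally, so the loss of sleep and the stay on the platform cannot be told apart. Each state held 12 rats in 2 sets of 6, and RNA was pooled within a set, so each of the 6 groups (3 states in 2 structures) has n = 2 pools. Set 1 was pooled independently for 2 arrays, which are averaged here on the log2 scale, and set 2 was measured on 1 array. The 18 arrays had median signals between 32.1 and 37.1 on a linear scale, and their number limits the precision. In pooled tissue, fewer cells of a type and less RNA per cell cannot be told apart.

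As background, synaptic activity raises calcium and cyclic AMP in neurons and drives genes in waves. Rapid genes such as Fos, Egr1 and Arc need no new protein. A later wave encodes the secreted proteins, receptors' regulators, kinases and modifiers of DNA methylation that alter synapses over hours. The transcription factor CREB, which binds the cyclic AMP response element (CRE), acts on genes of both waves. In cortex and hippocampus such genes are known for their part in plasticity, and several are counted among the genes that follow waking or prolonged activity.

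The roles of the members differ. Inhba encodes the subunit of activin A, a secreted ligand of the TGF-beta family that signals through Acvr1b and Acvr2 receptors to Smad2 and Smad3. Gadd45b and Gadd45g encode small nuclear proteins that bind the kinase Map3k4 and have been tied to active DNA demethylation. Sik1 encodes a kinase that holds CREB's coactivators, the Crtc proteins, out of the nucleus. Rgs2 and Rgs4 encode proteins that speed the switching off of G proteins after a receptor has fired. Rheb encodes the small GTPase that turns on the growth kinase complex mTORC1, and Plk2 encodes a Polo-like kinase that takes down synaptic scaffolds after strong activity. Nptx2 encodes a secreted pentraxin that gathers AMPA receptors, and Pcsk1 an enzyme that cuts peptide precursors.

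Promoter sequences were set out first, because the delayed genes are commonly described as targets of CREB and of the rapid transcription factors. RefSeq promoters on the rat build GRCr8 (250 bases before to 50 bases after the annotated start, on the strand of the gene) were matched by symbol for 9 of the 10 genes. The promoters printed are those of Inhba, Rgs2, Gadd45b, Sik1 and Plk2, the last being the member with a full CRE. Inhba and Rgs2 were taken for their highest group means in recovery neocortex by first probe sets, a trait that Rgs4 shared. Gadd45b and Sik1 were taken for deprived pools above both control pools in neocortex by first probe sets, which Inhba and Rheb shared. Capitals mark matches, on either strand, to TGACGTCA (the full CRE), TGACG (the CRE core, which lies within the full CRE), TGANTCA (AP-1, bound by Fos and Jun), GCGNGGGCG (bound by Egr factors) and TATAAA (the TATA box).
Inhba, chr17:53804459-53804758, minus strand: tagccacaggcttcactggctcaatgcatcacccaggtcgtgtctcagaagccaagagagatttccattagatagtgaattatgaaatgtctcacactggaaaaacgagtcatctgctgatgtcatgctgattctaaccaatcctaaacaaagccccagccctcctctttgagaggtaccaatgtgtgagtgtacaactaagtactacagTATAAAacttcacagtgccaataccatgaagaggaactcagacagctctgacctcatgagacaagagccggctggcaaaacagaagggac
Rgs2, chr13:58352617-58352916, minus strand: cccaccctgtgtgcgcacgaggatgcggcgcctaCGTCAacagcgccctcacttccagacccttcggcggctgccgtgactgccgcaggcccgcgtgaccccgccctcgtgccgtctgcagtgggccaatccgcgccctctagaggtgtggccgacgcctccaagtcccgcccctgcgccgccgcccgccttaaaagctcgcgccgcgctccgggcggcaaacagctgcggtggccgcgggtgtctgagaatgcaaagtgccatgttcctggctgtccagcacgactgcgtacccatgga
Gadd45b, chr7:9430669-9430968, minus strand: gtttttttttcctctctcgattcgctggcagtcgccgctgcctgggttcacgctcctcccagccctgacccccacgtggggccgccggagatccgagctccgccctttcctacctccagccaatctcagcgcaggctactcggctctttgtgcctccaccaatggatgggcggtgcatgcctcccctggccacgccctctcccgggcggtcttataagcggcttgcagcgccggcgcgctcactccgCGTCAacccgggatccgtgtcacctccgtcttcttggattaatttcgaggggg
Sik1, chr20:9958597-9958896, minus strand: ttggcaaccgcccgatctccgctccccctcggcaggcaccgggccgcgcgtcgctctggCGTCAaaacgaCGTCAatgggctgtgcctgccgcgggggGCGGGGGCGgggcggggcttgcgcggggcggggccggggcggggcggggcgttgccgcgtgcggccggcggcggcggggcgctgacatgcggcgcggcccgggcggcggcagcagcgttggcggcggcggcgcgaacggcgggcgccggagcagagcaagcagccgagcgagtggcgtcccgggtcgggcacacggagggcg
Plk2, chr2:43702286-43702585, plus strand: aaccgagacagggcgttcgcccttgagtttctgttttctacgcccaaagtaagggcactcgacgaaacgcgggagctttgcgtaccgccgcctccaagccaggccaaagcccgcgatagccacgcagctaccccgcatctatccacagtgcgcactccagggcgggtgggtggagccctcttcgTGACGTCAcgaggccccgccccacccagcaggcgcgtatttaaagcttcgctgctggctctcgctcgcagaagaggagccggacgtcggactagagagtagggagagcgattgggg

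The full CRE occurred in Plk2 alone among the 9 promoters, at 66 to 59 bases before the start, and in 1.83% of the 33469 RefSeq promoters of this length. The CRE core occurred in 7 of the 9 promoters, against 21.2% of all promoters. Sik1 held the core at 191 and 180 bases before the start, Rgs2 at 216, Rgs4 at 153 and Rheb at 237, while in Gadd45b it crossed the start itself. Inhba and Gadd45g held no core in this window. The AP-1 letters were in 0 of the 9 promoters and in 7.33% of all. The Egr motif lay in Sik1, 152 bases before the start, and in Nptx2, 112 bases before it, against 4.98% of all promoters. A TATA box lay in Inhba, Gadd45g and Rgs4, at 40 to 48 bases before the start, against 14.2% of all. These matches are letters in a window and describe no binding.

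**Figure D1:**
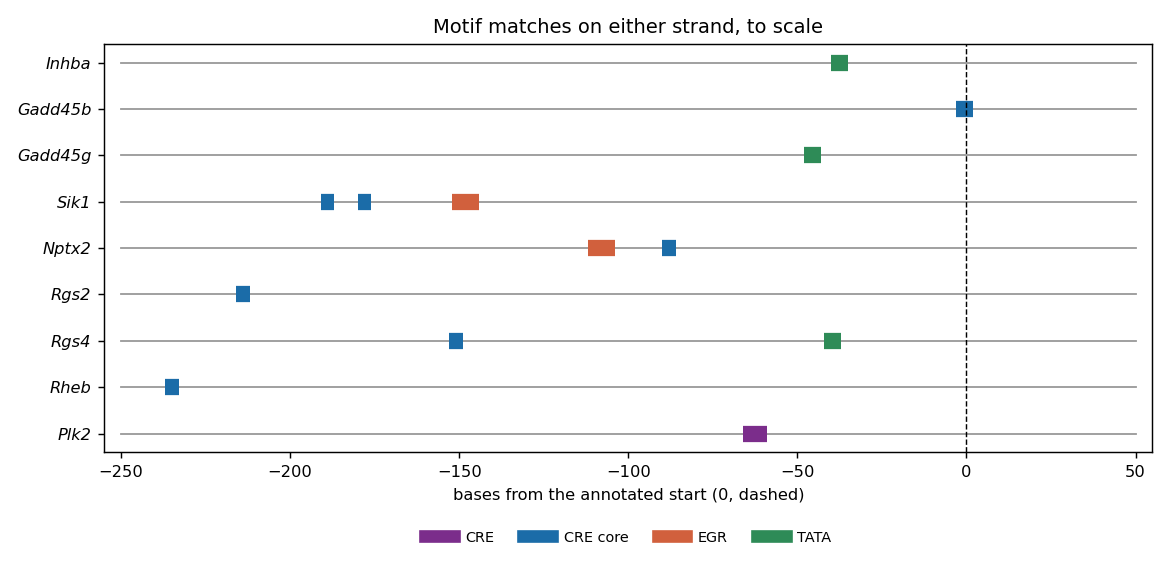
Positions of the motif matches in the RefSeq promoters of 9 member genes, drawn to scale, with 1 line per gene. The horizontal axis gives the distance in bases from the annotated start. The first base of the gene counts as 1, and no base counts as 0. Coloured blocks are matches on either strand: the full CRE is seen in Plk2 alone and the CRE core in 6 further genes.

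No member passed the test between sleep states in either structure. The test was limma's, with a Benjamini-Hochberg adjustment over all 18625 probe sets kept and a call at an adjusted p under 0.05. Without a block for the set of rats, limma called 0 of 18625 probe sets (0%) in each of the 6 comparisons of states, while between 169 and 301 probe sets had an unadjusted p under 0.05. With the set as a block it called 2 (0.0107%) for deprived against control neocortex and 1 (0.00537%) for recovery against deprived neocortex, none of them a member, and 0 (0%) in the other 4 comparisons, where 1078 to 1363 probe sets had an unadjusted p under 0.05. Among the 11 member probe sets, 0 to 3 had an unadjusted p under 0.05 in a comparison without the block, and the smallest adjusted p with the block was 0.412, for Rgs2 in hippocampal formation. The state differences below are therefore values, none past the threshold, and the comparisons with control within a structure share the same control pools.

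**Figure D2:**
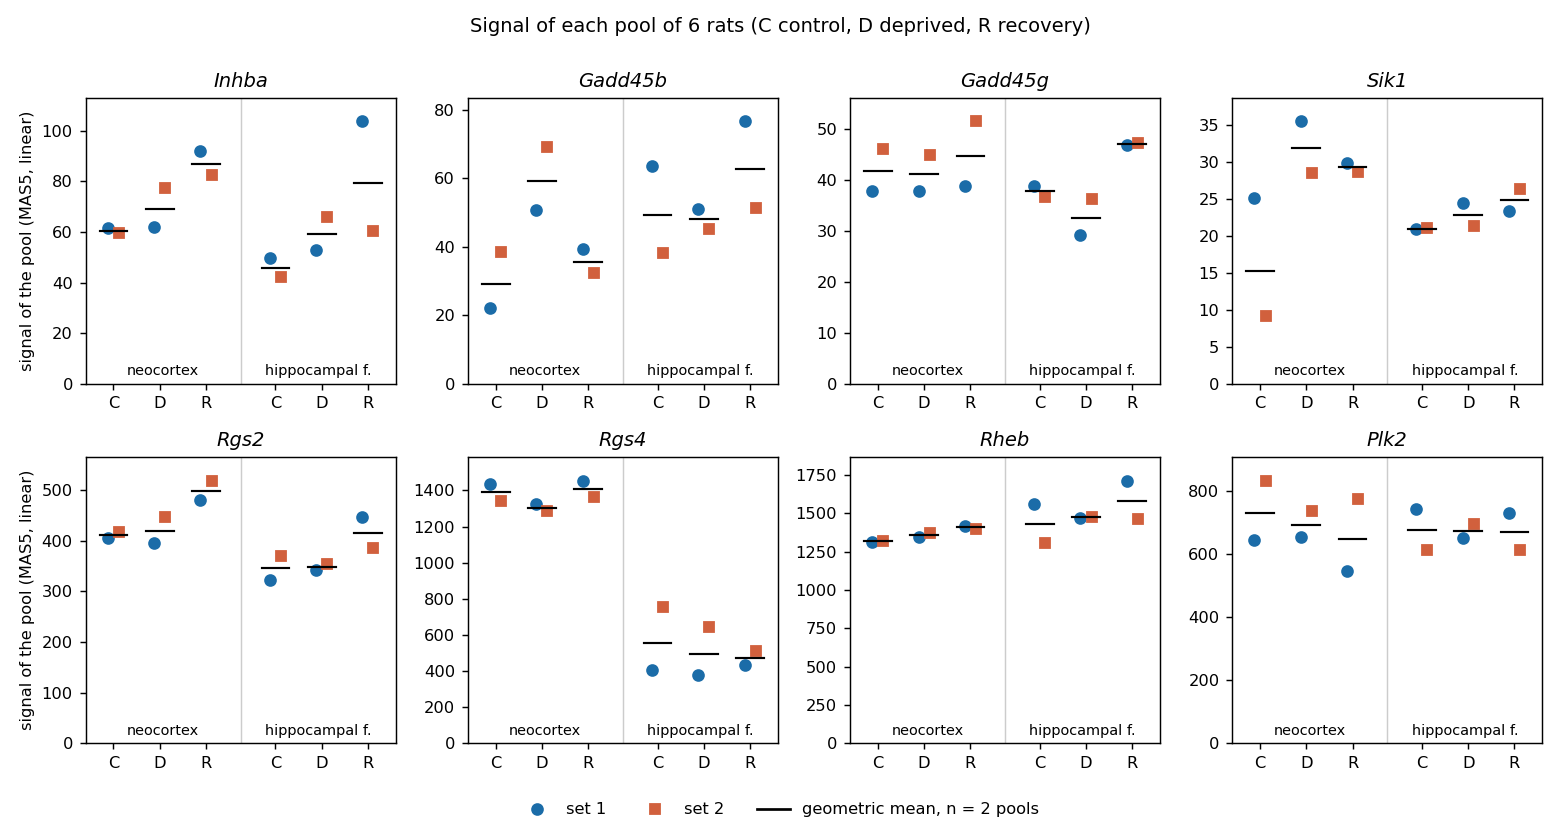
Linear signal of the first probe set of each of the 8 measured genes in every pool of 6 rats (circles set 1, squares set 2), for control (C), deprived (D) and recovery (R) rats, with neocortex on the left and hippocampal formation on the right of each panel. Black bars are geometric means of 2 pools: the group means of Inhba, Rgs2 and Rgs4 were highest in recovery neocortex. Gadd45b, Sik1, Inhba and Rheb lay above both control pools in deprived neocortex, and Rgs4 was lower in all hippocampal pools.

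By its first probe set Inhba, the activin subunit, had its lowest signals in control rats and its highest mean in recovery rats in both structures. In neocortex the probe set 1383486_at read 61.4 in set 1 and 59.5 in set 2 of the control rats, 61.9 and 77.4 in the deprived rats, and 91.8 and 82.4 in the recovery rats. Both recovery pools lay above all 4 other neocortical pools, and the deprived pools lay above the control pools, in set 1 by less than 1 unit. In hippocampal formation it read 49.5 and 42.3 in control, 52.9 and 66.0 in deprived and 103.7 and 60.5 in recovery rats. Both recovery pools lay above the control pools, but the recovery pool of set 2 lay below the deprived pool of set 2.

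Recovery minus control for Inhba was 0.53 ± 0.24 in neocortex (log2 difference ± SE, a 1.44-fold higher mean) and 0.79 ± 0.24 in hippocampal formation (1.73-fold). The differences within the sets were 0.58 and 0.47 in neocortex and 1.07 and 0.52 in hippocampal formation. Limma's adjusted p with the set as a block was 0.82 and 0.445. The hippocampal value rested in part on the recovery pool of set 1, since it was 0.40 without that pool and 1.18 without the recovery pool of set 2. Deprived minus control was smaller, at 0.20 ± 0.24 in neocortex and 0.37 ± 0.24 in hippocampal formation. The second Inhba probe set was dim, between 2.8 and 24.1 on single arrays. Its recovery minus control was 0.42 in neocortex, where the pools did not overlap, and 1.003 in hippocampal formation, where they did. The hippocampal value had opposite signs in the sets, with 2.06 in set 1 and -0.05 in set 2. In neocortex the lowest mean log2 signal of this probe set was in deprived rats, 3.11 against 3.18 in control rats.

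Rgs2, which acts mainly on the Gq class of G proteins, was the member whose recovery pools stood above all other pools of their structure in both structures and by both probe sets. Such an arrangement, picked out after the values were seen, occurred in 58 of the 18625 probe sets kept (0.311%). The first probe set, 1387074_at, read 405 and 418 in control, 395 and 446 in deprived and 479.7 and 518 in recovery neocortex. In hippocampal formation it read 322 and 369.8 in control, 343 and 353.5 in deprived and 447 and 384 in recovery rats. The second, 1368144_at, gave 201 and 204, 198 and 202, and 229 and 223 in the same order for neocortex. Its hippocampal signals were 144 and 159.8 in control, 135 and 146 in deprived and 178 and 180.4 in recovery rats.

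The size of the Rgs2 difference was modest. Recovery minus control was 0.28 ± 0.12 and 0.16 ± 0.10 in neocortex (log2 ± SE, first and second probe set), which is 1.21-fold and 1.12-fold. In hippocampal formation it was 0.26 ± 0.12 and 0.24 ± 0.10, and recovery minus deprived was 0.25 ± 0.12 and 0.35 ± 0.10. For the first probe set the hippocampal recovery minus control was 0.47 in set 1 and 0.06 in set 2. It was 0.16 without the recovery pool of set 1, and also 0.16 without the control pool of set 1, while recovery minus deprived was 0.14 without that recovery pool. Deprived minus control lay within 0.03 of 0 in neocortex for both probe sets, and was 0.01 and -0.11 in hippocampal formation. Technical arrays of a pool differed by a median of 0.17 for the first and 0.10 for the second probe set, so a difference of this size is near the gap between repeat arrays for the first one. By the same arrangement of pools within 1 structure, recovery lay on top for 4 of the 11 member probe sets in neocortex (Inhba, Rheb and both of Rgs2, against 4.04% of all) and for 3 in hippocampal formation (Gadd45g and both of Rgs2, against 4.47%).

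Other quantities moved with the recovery state and their part in these values was not tested. Of the 4 listed blood markers, 3 were measured, and their summed signal was 816 to 1054 in recovery against 1678 to 2206 in control neocortex, and 985 to 991 against 1510 to 2922 in hippocampal formation. The 3' over 5' signal ratio of the beta-actin control probes, which tracks how intact the RNA is, was 2.83 and 3.18 in recovery against 2.61 and 2.69 in control neocortex. In hippocampal formation it went the other way, with 2.33 and 2.39 in recovery against 2.42 and 2.52 in control rats. No other list of markers had recovery pools clear of the control pools in both structures. In hippocampal formation alone, the summed endothelial markers were 843 and 866 in recovery against 919.6 and 974 in control rats, and the meningeal markers 450.5 and 607 against 635 and 630.1. The choroid plexus markers there were 1235 and 409 in recovery against 2851 and 1334 in control rats. In neocortex alone, the hippocampal markers were 915 and 864 against 857 and 860.2.

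Gadd45b, one of the DNA-damage and demethylation genes, was higher in deprived than in control neocortex and lower again in recovery. Its probe set 1372016_at read 22.2 and 38.5 in control, 50.7 and 69.2 in deprived and 39.4 and 32.3 in recovery neocortex. Both deprived pools lay above the 4 others, while recovery and control overlapped. Deprived minus control was 1.02 ± 0.33 (2.03-fold; 1.19 in set 1 and 0.85 in set 2), with limma's adjusted p = 0.625 under the set block. Recovery minus deprived was -0.73 ± 0.33. The value for deprivation moved to 0.62 without the control pool of set 1 and to 1.42 without that of set 2.

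The hippocampal signals of Gadd45b did not follow this course. They were 63.5 and 38.2 in control, 51.0 and 45.3 in deprived and 76.7 and 51.2 in recovery rats, so that deprived minus control was -0.03 ± 0.33 with opposite signs in the sets. Recovery minus deprived was 0.38 ± 0.33, the opposite sign to neocortex, and 0.09 without the recovery pool of set 1. The pools were apart only by 51.2 against 51.0, and the arrays of that deprived pool read 65.2 and 39.9. The difference between the structures in that contrast was 1.11 ± 0.49, and its adjusted p in limma was 0.516 with the set block. Across the 3 interactions, limma called 0 of 18625 (0%) without the block; with it, 2 (0.0107%) in recovery minus deprived, neither a member, and 0 (0%) in the others. Repeat arrays of 1 pool differed by a median of 0.52 for this probe set, against 0.16 over all probe sets kept, so single pools are imprecise.

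Gadd45g, its family member, gave 37.8 and 46.1 in control, 37.8 and 44.9 in deprived and 38.8 and 51.5 in recovery neocortex (1388792_at). All neocortical differences between states were under 0.12 in size, far less than the gap between the sets. In hippocampal formation it was 38.8 and 36.7 in control, 29.1 and 36.2 in deprived and 46.9 and 47.2 in recovery rats. The deprived pools were the lowest and the recovery pools the highest, with recovery minus deprived at 0.54 ± 0.20 (1.45-fold) and an adjusted p of 0.57 in limma under the block. The repeat arrays of this probe set differed by a median of 0.58, as much as this difference. Marker sums were also apart between recovery and deprived hippocampal pools: 2727 to 2807 against 2526 to 2604 for inhibitory neurons, 2519 to 2520 against 2310 to 2380 for hippocampal neurons, 985 to 991 against 1156 to 1999.5 for blood and 843 to 866 against 872 to 936 for endothelium. Their part in the difference was not tested.

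Sik1, the kinase that restrains CREB's coactivators, lay near the limit of the filter. Its first probe set, 1368596_at, read 25.2 and 9.2 in control, 35.5 and 28.6 in deprived and 29.9 and 28.7 in recovery neocortex. Both other states lay above both control pools, and deprived minus control was 1.07 ± 0.39 and recovery minus control 0.95 ± 0.39. Those values rested on the control array of set 2, at a signal under the filter level, since without it they were 0.34 and 0.22. Adding 16 to every signal before the logarithm brought them to 0.58 and 0.49. In hippocampal formation the signals lay between 20.9 and 26.4 in all 6 pools, control pools lowest, and no difference between states exceeded 0.24. The second Sik1 probe set read 1.3 to 14.5 on single arrays and gave a deprived minus control of -0.48 in neocortex, with opposite signs in the sets.

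Rheb and Plk2 varied little with the sleep state. The first Rheb probe set, 1398787_at, read 1313 and 1320 in control, 1342 and 1372 in deprived and 1416 and 1397 in recovery neocortex, each state's pools clear of the others. Recovery minus control was 0.10 ± 0.11 there and 0.15 ± 0.11 in hippocampal formation, where the signals were 1563 and 1305, 1469 and 1474, and 1711 and 1463 in the order of states. The second Rheb probe set, 1375360_at, was dim, with array signals of 15.1 to 45.3. In hippocampal formation its deprived minus control was -0.75 ± 0.33, while the first probe set gave 0.04 ± 0.11, so the probe sets disagree.

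Plk2, probe set 1368106_at, read 643 and 832 in control, 653 and 736 in deprived and 545 and 773 in recovery neocortex. Its hippocampal signals were 744 and 614.5, 652 and 695, and 731.5 and 612. Every comparison of states overlapped, and the largest difference was -0.17 ± 0.19 for recovery minus control in neocortex. These values do not show that Plk2 was the same in all states. Set 2 lay above set 1 in all 3 neocortical groups, by a median of 0.37.

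Rgs4, which acts on Gi and Gq proteins, had no difference between states past its SE in the fit without the block. In neocortex the first probe set, 1368505_at, gave 1436 and 1339 in control, 1325 and 1287 in deprived and 1453 and 1366 in recovery rats. Both deprived pools were below the other 4, by a deprived minus control of only -0.09 ± 0.29, and the second probe set overlapped between all 3 states with 0.02 ± 0.33. In hippocampal formation recovery minus control was -0.23 ± 0.29, with opposite signs in the sets (0.11 in set 1 and -0.57 in set 2), and -0.20 ± 0.33 by the second probe set. With SEs of this size, the values do not show that Rgs4 was the same in all states.

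**Figure D3:**
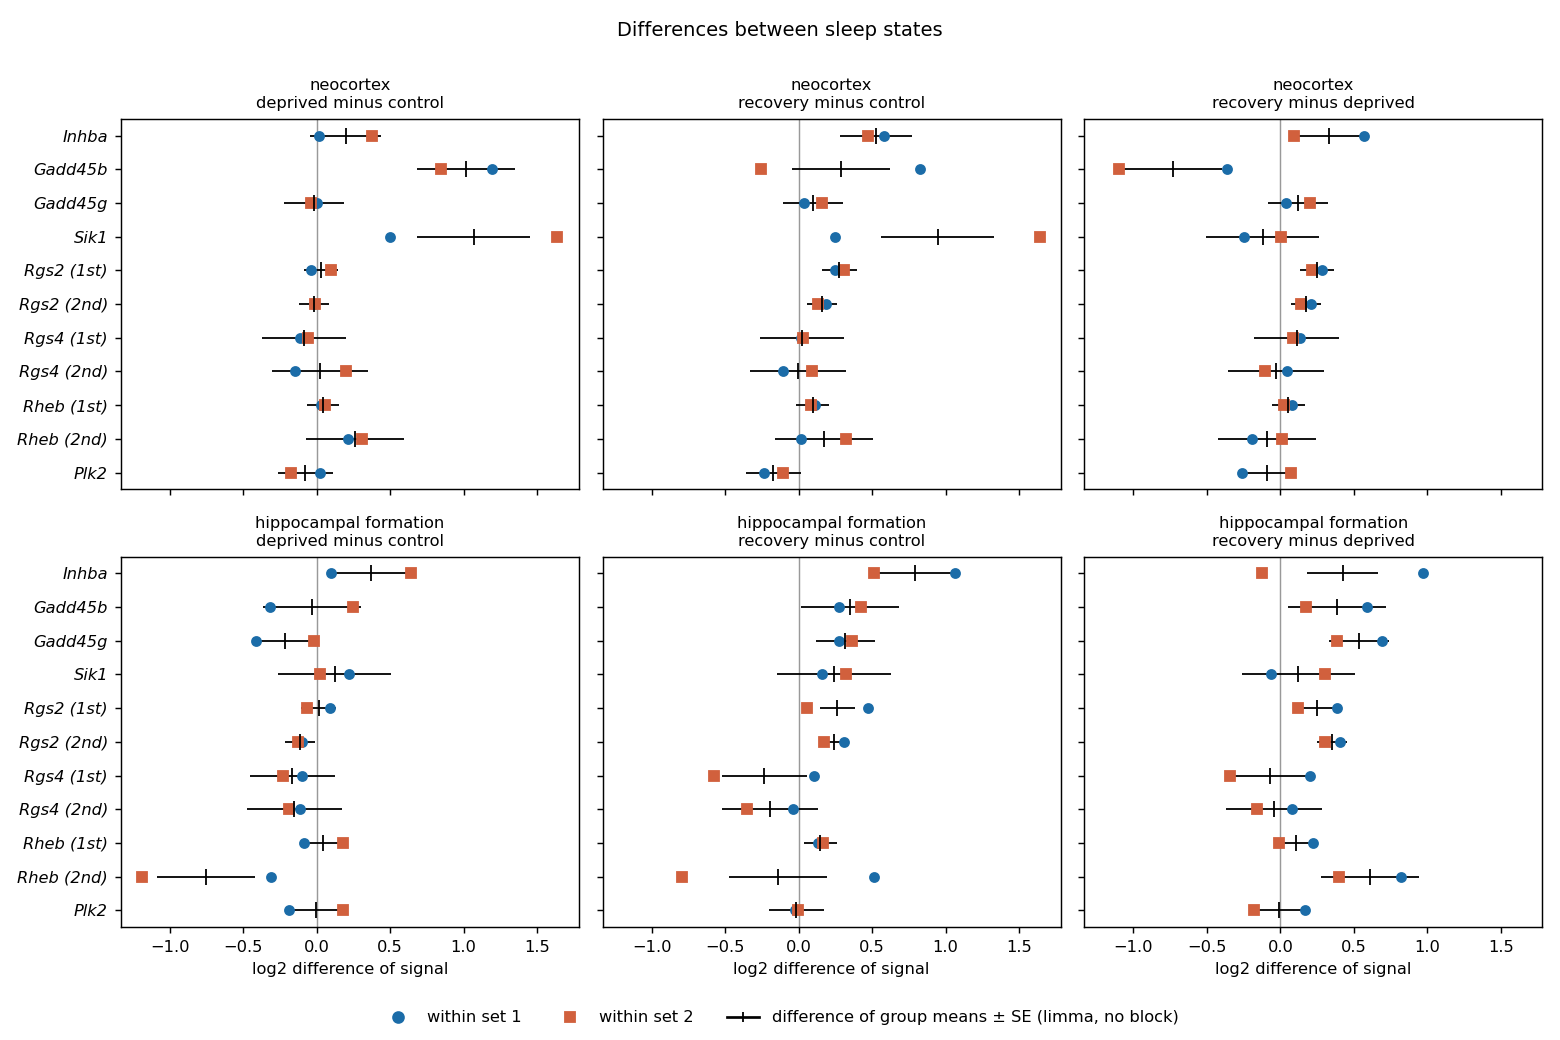
Log2 difference of signal between sleep states for the 11 member probe sets above the filter (1st and 2nd mark the probe sets of a gene that has both), with neocortex above and hippocampal formation below. Coloured points are the differences within each set of rats, and black ticks with bars the difference of group means ± SE from limma without a block (n = 2 pools a group). Recovery minus control lay above 0 in both sets and both structures for Inhba, Gadd45g, Sik1, both Rgs2 probe sets and the first Rheb probe set.

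Counted over the 11 member probe sets, cases where the pools of 2 states did not overlap are given beside the share of all probe sets. These counts are description only, because the members were chosen with earlier results of these data known. In deprived against control neocortex 5 were higher without overlap (Gadd45b, Sik1, Inhba and both of Rheb; 13.1% of all) and 1 was lower (Rgs4; 11.4%). In recovery against control neocortex 6 were higher (11.9%) and 0 lower (12.1%), and in recovery against deprived neocortex 5 were higher (10.9%) and 1, Gadd45b, lower (12.5%). Hippocampal formation gave 2 higher (10%) and 2 lower (9.33%) for deprived against control. For recovery it gave 5 higher (10%) and 0 lower (9.87%) against control, and 4 higher (11.8%) and 0 lower (11.4%) against deprived rats. Probe sets of 1 gene share their RNA, and no member was called in any of these comparisons.

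The median of the 8 first probe sets was 0.04 for deprived minus control, 0.19 for recovery minus control and 0.08 for recovery minus deprived in neocortex. All probe sets kept had medians of 0.01, 0.00 and -0.01. In hippocampal formation the medians of the 8 were 0.00, 0.25 and 0.19, and those of all probe sets 0.00, 0.01 and 0.00. Recovery minus control was thus above 0 for 7 of the 8 genes in neocortex, with Plk2 below, and for 6 in hippocampal formation, with Plk2 and Rgs4 below.

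The rapid activity-regulated genes had another order of states in neocortex, given as description because both lists were chosen with results known. Of 30 listed genes, 20 were above the filter, and their neocortical median was 0.29 for deprived minus control (18 of 20 above 0), 0.10 for recovery minus control and -0.22 for recovery minus deprived (17 of 20 below 0). Arc, a rapid gene of the synapse, was 1.91-fold higher in deprived than in control neocortex and 1.87-fold lower in recovery than in deprived rats, past the threshold in both only with the set block (limma's adjusted p = 0.0113 and 0.0309). Among the members Gadd45b alone lay on top in deprived neocortex without overlap of the recovery pools. In hippocampal formation the medians of the rapid genes were 0.03, 0.29 and 0.19. Fos had a recovery minus control of 0.84 ± 0.42 there (1.44 in set 1 and 0.23 in set 2). Limma's adjusted p for it was 0.425 with the set as a block.

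Of 21 listed other genes of the late wave, 15 were measured, with neocortical medians of 0.12 for deprived and 0.12 for recovery minus control, and 13 of the 15 lay above 0 for recovery minus control in hippocampal formation (median 0.13). No gene of the list passed the test between states. Bdnf, a neurotrophin, had the largest difference for recovery minus control in neocortex, 0.54, and Ptgs2, the inducible cyclooxygenase, in hippocampal formation, 0.72.

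Partners of each member were counted from lists chosen with earlier results known. None of these partners was called between states with or without the block. Of 10 measured activin pathway genes, 7 lay above 0 for recovery minus control in neocortex and 5 in hippocampal formation (medians 0.06 and -0.01). Inhbb, the other activin beta subunit, had a deprived minus control of -0.53 in neocortex. All 11 Gadd45 partners were measured. They lay below 0 for recovery minus deprived in hippocampal formation (11 of 11, median -0.08), where Gadd45b and Gadd45g lay above it, and 6 of 11 did in neocortex (median -0.06). For the 12 genes around Sik1 and CREB, 10 lay below 0 for deprived minus control in neocortex (median -0.07) and 5 in hippocampal formation (median 0.03). Creb1 was at 0.32 in neocortex and 0.43 in hippocampal formation. The comparison given thus differs between lists. For recovery minus control, 8 of these 12 lay above 0 in neocortex (median 0.04) and 4 in hippocampal formation (median -0.01). Of the Gadd45 partners, 7 of 11 lay below 0 for it in neocortex (median -0.04) and 10 of 11 in hippocampal formation (median -0.09).

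The RGS family and its G proteins had 16 measured genes, 12 of them above 0 for recovery minus control in hippocampal formation (median 0.07) and 7 in neocortex (median -0.03). Gnaq, the G protein that Rgs2 acts on, was at 0.52 ± 0.54 for recovery minus control in hippocampal formation, within its SE of 0 without the block. With the set as a block the SE was 0.23 and limma's adjusted p was 0.67. The sets gave 0.40 and 0.63. Of 12 mTORC1 pathway genes, 4 lay above 0 for recovery minus control in hippocampal formation (median -0.05) and 5 in neocortex (median -0.02), and Ddit4, an inhibitor of mTORC1, was at -0.46 for recovery minus deprived in neocortex. Of 4 Polo-like kinases and targets, 0 lay above 0 for recovery minus control in hippocampal formation and 2 in neocortex, and Plk5 was at -0.90 for deprived minus control in neocortex. The pentraxins and AMPA receptors, the partners of Nptx2, had 8 measured genes with 7 above 0 for recovery minus control in neocortex (median 0.09) and 5 in hippocampal formation (median 0.02). For prohormone processing, where Pcsk1 acts, it was 7 of 9 in neocortex (median 0.08) and 5 in hippocampal formation (median 0.01).

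Between the structures, Rgs4 and Rgs2 were lower in the hippocampal formation than in the neocortex of the same rats. For each of the 6 animal pools the neocortical log2 signal was subtracted from the hippocampal one, and these differences were tested. Rgs4 differed by -1.44 ± 0.15 for the first probe set and -1.65 ± 0.16 for the second (log2 ± SE, 2.71-fold and 3.15-fold lower), with limma's adjusted p = 0.000963 and 0.000708. It was lower in 6 of 6 animal pools by both, the hippocampal signals of 377 to 757 and the neocortical ones of 1287 to 1453 being well apart for the first. Rgs2 differed by -0.26 ± 0.06 and -0.42 ± 0.06 (1.2-fold and 1.34-fold lower, adjusted p = 0.0287 and 0.00326), again lower in 6 of 6 pools. The call for the first Rgs2 probe set was lost in 4 of the 6 fits that left out 1 animal pool, with adjusted p of 0.0896 to 0.101, and with only the first array of each pool (0.146), while the second kept it in all 6.

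In all, 4 of the 11 member probe sets were called lower and 0 higher, where limma called 10.5% of all probe sets lower and 9.4% higher. With the set as a block 22.7% of all were lower and 20.3% higher, and 7 member probe sets were called. The added ones were Inhba at -0.25 ± 0.08 (adjusted p = 0.0277 with the block and 0.119 without), Gadd45b at 0.42 ± 0.12 (0.0133 and 0.175) and the first Rheb probe set at 0.13 ± 0.04 (0.0144 and 0.127). Inhba was 1.087-fold lower in hippocampal formation in set 1 and 1.31-fold in set 2. It was lower in 5 of 6 animal pools, and the first Rheb probe set was higher in 5 of 6. Gadd45b was higher in 4 of 6, with the deprived pools at 0.01 and -0.61. Gadd45g, Sik1, Plk2 and the second Rheb probe set passed neither test, with differences of -0.14, -0.08, -0.04 and 0.30. Leaving out the animal pool of control set 1, deprived set 1, deprived set 2 or recovery set 1 took the 3700 calls over all probe sets to 2171, 1625, 2338 and 1790.

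**Figure D4:**
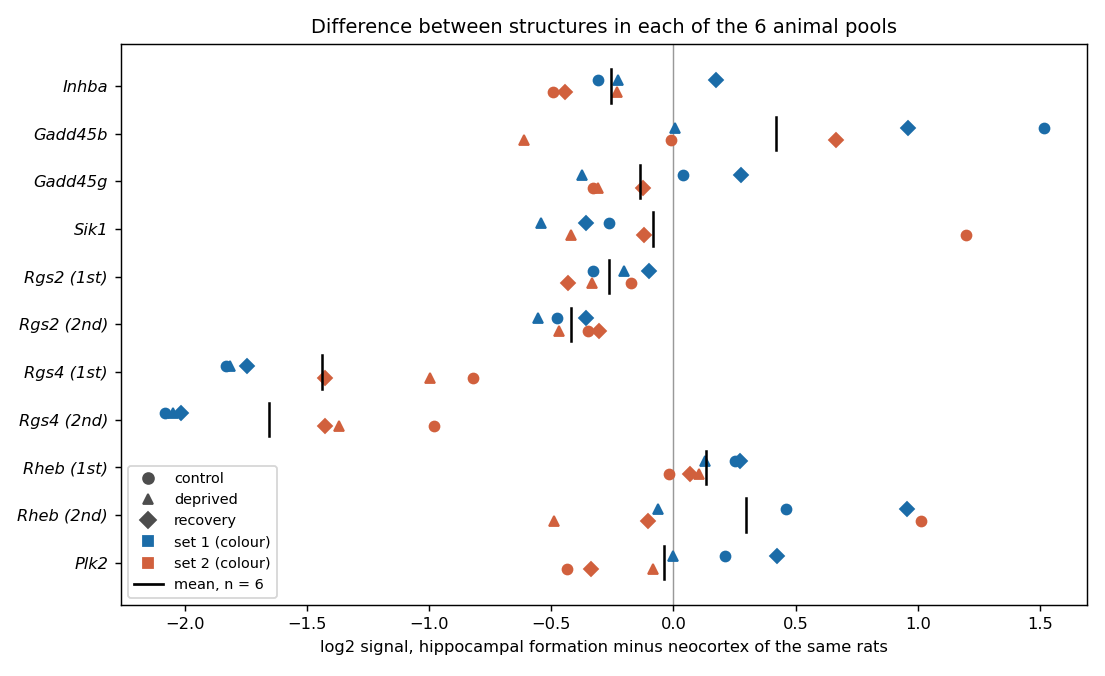
Log2 signal of the hippocampal formation minus that of the neocortex in each of the 6 animal pools, for the 11 member probe sets above the filter (shape for the sleep state, colour for the set of rats, black line for the mean). All 6 pools lie below 0 for both probe sets of Rgs4 and of Rgs2, and for Rgs4 the pools of set 1 lie further from 0 than those of set 2.

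The Rgs4 difference depended on the set of rats. Hippocampal signals of the first probe set were 404, 377 and 434 in set 1 and 757, 645.5 and 509 in set 2 (control, deprived and recovery), while the neocortical signals of the sets differed by at most 0.10. The difference between structures was 3.47-fold in set 1 and 2.12-fold in set 2, and 4.14-fold and 2.39-fold by the second probe set. Marker sums moved with the set in the same pools: the 9 annotated neocortical markers summed to 1167 to 1304 in hippocampal set 1 and 1632 to 1709 in set 2. They had the same order in neocortex, with 2007 to 2026 in set 1 and 2552 to 2628 in set 2, where the Rgs4 signals of the first probe set differed little. The 9 striatal markers, which the neocortical samples held at 1826 to 2362, summed to 794 to 875 in hippocampal set 1 and 675 to 905 in set 2, with no order by set. None of the markers in either list was at the floor in any pool. Their part in the Rgs4 difference, and in the Rgs2 difference between the structures, was not tested.

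Other structure differences also varied with the set. Plk2 changed sign between the sets, with 0.21 in set 1 and -0.29 in set 2, and Gadd45g was at -0.02 and -0.26. The first Sik1 probe set had means of -0.39 and 0.22, but the mean of set 2 rested on its control pool. The neocortical array of that pool read 9.2, under the filter level. In the deprived and recovery pools of set 2 Sik1 was lower in hippocampal formation, and it was lower in 5 of 6 animal pools. Gadd45b was 1.78-fold higher in hippocampal formation in set 1 and 1.01-fold in set 2, and the first Rheb probe set was 1.16-fold and 1.04-fold higher. In these pools all 7 choroid plexus markers were annotated, and they summed to 1235 to 4671 in hippocampal set 1 against 409 to 1334 in set 2, most of it Ttr. In neocortex they had the same order, with 1620 to 2242 in set 1 and 182 to 812 in set 2. Whether this tissue has a part in either gene was not tested. The hippocampal markers went with the labels of structure: the 8 annotated ones summed to 2126 to 2562 in hippocampal formation and 838 to 915 in neocortex, with Iyd at the floor in 1 pool. The neocortical markers did so in part: of 9 measured, 6 were lower in hippocampal formation and 3 higher. All 8 measured striatal markers were lower there than in the neocortical samples.

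Partner genes were also compared between the structures, where 9.4% of all probe sets were called higher and 10.5% lower. Of the measured genes, limma called 2 higher and 2 lower of 10 in the activin pathway, 1 and 3 of 11 Gadd45 partners, 0 and 3 of 12 around Sik1 and CREB, and 2 and 4 of 16 in the RGS family. It called 4 and 3 of 8 pentraxins and AMPA receptors, 2 and 0 of 9 in prohormone processing, 1 and 2 of 12 in the mTORC1 pathway, and 0 of 4 Polo-like kinases and targets. Several of these counts, such as 3 of 12 for the mTORC1 pathway and for Sik1 and CREB, lie near the share over all probe sets. The activin antagonist Fst and the receptor Acvr2b were 2.04-fold and 2.05-fold lower in hippocampal formation, and Acvr1 and Acvr2a 1.27-fold and 1.24-fold higher. Rgs9 was 2.68-fold lower and Rgs14 and Rgs10 1.52-fold and 1.51-fold higher. Rgs9 is also in the list of striatal markers. Mef2c, a target of the Sik1 pathway, was 2.89-fold lower. Of the genes around Nptx2, Cacng8, an AMPA receptor subunit partner, was 3.27-fold higher, and Gria1 and Nptx1 were 2.15-fold and 1.52-fold higher. Gria3 was 1.51-fold lower. All of these named genes passed limma's test without the block, with adjusted p between 0.000472 and 0.0307.

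Ordered by group mean, Inhba ran from recovery neocortex (mean log2 signal 6.44) through recovery hippocampal formation (6.31), deprived neocortex (6.11), control neocortex (5.92) and deprived hippocampal formation (5.89) to control hippocampal formation (5.52). Of these neighbours only deprived and control neocortex, and deprived and control hippocampal formation, had pools that did not overlap. For the first Rgs2 probe set recovery neocortex (8.96) stood apart from deprived neocortex (8.71), which overlapped with recovery hippocampal formation (8.70). Gadd45b had its highest means in recovery hippocampal formation (5.97) and deprived neocortex (5.89), which overlapped, and its lowest in control neocortex (4.87). For Rgs4 the 3 neocortical groups (10.35 to 10.46) stood apart from the 3 hippocampal groups (8.88 to 9.11), which overlapped with each other. No 2 neighbours were apart for Plk2.

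Across the 12 pools, with each structure centred on its mean, some members had like patterns, and these values carry no test because the pools share sets of rats. Pearson's r was 0.83 between Inhba and the first Rheb probe set, 0.79 between Inhba and the first Rgs2 probe set and 0.74 between Gadd45g and the second Rgs2 probe set. The probe sets of 1 gene gave 0.94 for Rgs4 and 0.81 for Rgs2, but 0.25 for Rheb. Over all probe sets kept, the genes most like Inhba were Prss23, Thap7 and Mobp (0.92, 0.92 and 0.91), and those most like Rgs2 were Mrpl41, Man1a1 and Nfatc2 (0.92, 0.90 and 0.87). Gadd45b was most like Clstn2 (0.91), Gadd45g like Myl12b (0.91), Sik1 like Fbxl20 (0.96), Rgs4 like Fbxl5 (0.98), Rheb like Pcsk6 (0.94) and Plk2 like Fgf14 (0.93).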

How the data were processed

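Biotin-labelled cRNA of RNA pools, each of 6 rats, was hybridised to Affymetrix rat arrays, per the labels' protocols. The deposited values are linear probe set intensities that the authors made with MAS5, per the submitters' processing notes, and they had been scaled to a mean of 100 after trimming 2% at each end. No MAS5 version is named there. For recovery, the 72 h and 6 h of the sample labels were used; another label's wording allows 6 h following 78 h.

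Values under 1 were set to 1, log2 was taken, and arrays of a pool were averaged. Control probe sets (57) and the lowest 40% of 31042 probe sets were left out, which kept 18625. Group means were compared with limma 3.58.1 (lmFit, eBayes with trend, R 4.3.3) on 12 pools, and structures on the 6 within-animal differences. The limma fits were tried on simulated pools with independent noise. A deviation shared by pools of the same set was not simulated, so that trial does not cover it. Python 3.11.15, pandas 2.3.3, numpy 2.4.6 and matplotlib 3.10.9 were used. Replicates are pools of separate animals.

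The replicate number names a set of rats. Same-numbered pools deviated together in every pair of states (correlation 0.539 to 0.682 within a structure), so fits with the set as a block stand beside those without it. That the sets shared a day or litter is not stated. The members and lists were chosen with earlier results of these data known. Every member probe set was described. From each other list, called genes (at most 4 a comparison) or the gene with the largest difference could be named. The 3 genes most like each member were found by Pearson's r. Of all probe sets, 20832 had 1 gene symbol, 436 several and 9831 none. Symbols came from the platform annotation. Alternatives were a pseudocount of 16, quantile normalization, no filter, array choices, the block, and leaving out each pool.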

Additional observations from a re-analysis of the deposited data

Results flagged for a closer look

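Gadd45b had opposite signs in the structures for recovery minus deprived, with pools that did not overlap in neocortex and were barely apart in hippocampal formation (51.2 against 51.0): -0.73 in neocortex and 0.38 in hippocampal formation (log2), the latter 0.09 without the recovery pool of set 1. The difference between the structures was 1.114 (0.95 in set 1 and 1.28 in set 2), with limma's adjusted p = 0.516 with the set as a block, so it did not pass.

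The second, dim Rheb probe set had opposite signs for deprived minus control, 0.26 in neocortex and -0.75 in hippocampal formation. The difference was -1.013 (-0.52 in set 1 and -1.50 in set 2), with an adjusted p of 0.982 with the block. The first Rheb probe set gave 0.04 in both structures.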

How the results depend on the processing

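Of 110 member results under 1111 alternatives, the direction changed 103 times: 100 times where the difference lay within its SE of 0 and 3 times where it lay past it. Those 3 were Gadd45b for recovery minus control in hippocampal formation (-0.0189 without control set 2), and Sik1 (0.0262 without control set 2) and Inhba (-0.0452 without recovery set 1) for the structure difference in recovery minus control. The cause was not tested. The replicate block gave 2 calls over all probe sets for deprived minus control in neocortex (also 2 with all arrays and the pool as a random block), 1 for recovery minus deprived in neocortex, 2 for the structure difference in recovery minus deprived, and 8006 in place of 3700 for the structures, with 7 in place of 4 member probe sets. It changed no other member call. Leaving out 1 animal pool gave 1625 to 4507 calls between structures and 3 to 5 member probe sets. Within set 1 alone, an alternative chosen after the data were seen with the states as replicates, there were 8491 calls and 7 members, and within set 2 alone 2741 and 6. A pool left alone in its group was taken to vary like the others. Signals near 19.7 limit Sik1 and the second Rheb probe set.

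Leaving out 1 pool at a time changed the sign of some log2 differences (first and second name the probe sets of a gene). For deprived minus control in neocortex it gave -0.16 to 0.12 for Gadd45g, -0.26 to 0.11 for Plk2, -0.0593 to 0.12 for Rgs2 first and -0.0713 to 0.12 for Rgs4 second. For recovery minus control in neocortex it gave -0.11 to 0.68 for Gadd45b, -0.11 to 0.30 for Gadd45g, -0.42 to 0.0803 for Plk2, -0.0275 to 0.0733 for Rgs4 first and -0.10 to 0.0886 for Rgs4 second. For recovery minus deprived in neocortex it gave -0.0862 to 0.32 for Gadd45g, -0.35 to 0.16 for Plk2, -0.11 to 0.0468 for Rgs4 second and -0.28 to 0.0354 for Sik1. For deprived minus control in hippocampal formation it gave -0.40 to 0.33 for Gadd45b, -0.14 to 0.13 for Plk2, -0.0873 to 0.11 for Rgs2 first, -0.62 to 0.29 for Rgs4 first, -0.61 to 0.30 for Rgs4 second and -0.0873 to 0.17 for Rheb first. For recovery minus control in hippocampal formation it gave -0.0189 to 0.71 for Gadd45b, -0.15 to 0.12 for Plk2, -0.69 to 0.22 for Rgs4 first, -0.65 to 0.26 for Rgs4 second and -0.64 to 0.36 for Rheb second. For recovery minus deprived in hippocampal formation it gave -0.14 to 0.12 for Plk2, -0.46 to 0.32 for Rgs4 first, -0.46 to 0.37 for Rgs4 second and -0.00871 to 0.22 for Rheb first. For the structures it gave -0.16 to 0.0893 for Plk2 and -0.33 to 0.16 for Sik1. For the structure difference in deprived minus control it gave -0.25 to 0.39 for Plk2, -0.0934 to 0.0601 for Rgs2 first, -0.58 to 0.43 for Rgs4 first, -0.73 to 0.37 for Rgs4 second and -0.13 to 0.13 for Rheb first. For the structure difference in recovery minus control it gave -0.70 to 0.82 for Gadd45b, -0.0452 to 0.58 for Inhba, -0.22 to 0.54 for Plk2, -0.18 to 0.15 for Rgs2 first, -0.76 to 0.25 for Rgs4 first, -0.74 to 0.36 for Rgs4 second, -0.84 to 0.22 for Rheb second, -0.0822 to 0.19 for Rheb first and -1.44 to 0.0262 for Sik1. For the structure difference in recovery minus deprived it gave -0.22 to 0.40 for Inhba, -0.29 to 0.47 for Plk2, -0.16 to 0.17 for Rgs2 first, -0.59 to 0.23 for Rgs4 first, -0.35 to 0.33 for Rgs4 second and -0.0512 to 0.16 for Rheb first.

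With only the first array of each pool, sign changes were -0.24 for Gadd45g (recovery minus control in neocortex), 0.0218 for Rheb second (recovery minus deprived in neocortex), -0.0922 for Gadd45g (recovery minus deprived in neocortex), 0.19 for Gadd45b (deprived minus control in hippocampal formation), -0.0109 for Rheb first (deprived minus control in hippocampal formation), 0.0613 for Rheb second (recovery minus control in hippocampal formation), 0.11 for Plk2 (recovery minus deprived in hippocampal formation), 0.0444 for Rgs4 second (recovery minus deprived in hippocampal formation), 0.11 for Sik1 (the structures), -0.0914 for Plk2 (the structure difference in deprived minus control), 0.00615 for Rgs2 first (the structure difference in deprived minus control), -0.0465 for Rgs2 second (the structure difference in recovery minus control), 0.11 for Rgs4 second (the structure difference in recovery minus deprived), -0.0169 for Inhba (the structure difference in recovery minus deprived) and -0.10 for Rgs2 first (the structure difference in recovery minus deprived). With quantile normalization, sign changes were 0.0091 for Plk2 (deprived minus control in hippocampal formation), 0.00373 for Plk2 (recovery minus control in hippocampal formation), 0.0174 for Sik1 (the structures) and 0.0248 for Rgs4 second (the structure difference in recovery minus deprived). With all arrays and the pool as a random block, sign changes were -0.0126 for Rgs4 second (deprived minus control in neocortex) and 0.0289 for Plk2 (recovery minus deprived in hippocampal formation). Within set 1 alone, the sign change was 0.21 for Plk2 (the structures). Within set 2 alone, the sign change was 0.22 for Sik1 (the structures).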
